A study of Mus musculus with 5 samples.

Results

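The Wnt ligands are a family of 19 genes in the count files, and the account here follows 8 of them: Wnt2b, Wnt3a, Wnt5a, Wnt7a, Wnt7b, Wnt8b, Wnt9a and Wnt10a. They were taken by symbol from 34590 gene symbols. The list was drawn up with their levels in the 2 regions in view, so the differences between regions given for these 8 genes are a description and carry no test. RNA sequencing was done on cortical tissue dissected from wild-type mouse embryos of a mixed strain background at stage E14.5 (days of embryonic development), without treatment. There were 3 libraries of medial cortex and 2 of lateral cortex. Nothing in the labels says whether replicates were separate embryos, so errors and p-values cover no more than the variation among the libraries at hand. The levels are of whole tissue, where more cells that express a gene cannot be told apart from more RNA per cell.

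Wnt proteins are secreted, lipid-modified signals. Porcn attaches the lipid, Wls carries the ligand to the cell surface, and Frizzled receptors with the co-receptors Lrp5 and Lrp6 receive it, which stabilises beta-catenin so that Tcf and Lef factors switch on targets such as Axin2. Some family members, Wnt5a among them, also act without beta-catenin, through Ror2 and related receptors. In the embryonic telencephalon the cortical hem, a strip at the medial edge of the cortex, is a source of Wnt and BMP signals and is needed for the hippocampus to form next to it.

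RefSeq promoter sequences were at hand for 5 of the 8 genes (build GRCm38.p6, while the counts were made on mm9). Each window is the 250 bases before the annotated start, read 5′ to 3′ along the gene. Of these 5, 4 are printed, to set the ligand with the largest difference between regions (Wnt8b) beside 2 neighbouring genes with the same direction of difference (Wnt3a and Wnt9a) and one with overlapping levels (Wnt7a). The positions are chr19:44493222-44493471 on the plus strand for Wnt8b, chr11:59290752-59291001 on the minus strand for Wnt3a, chr11:59306680-59306929 on the plus strand for Wnt9a and chr6:91411354-91411603 on the minus strand for Wnt7a. Capitals mark the motifs found among those searched.
Wnt8b: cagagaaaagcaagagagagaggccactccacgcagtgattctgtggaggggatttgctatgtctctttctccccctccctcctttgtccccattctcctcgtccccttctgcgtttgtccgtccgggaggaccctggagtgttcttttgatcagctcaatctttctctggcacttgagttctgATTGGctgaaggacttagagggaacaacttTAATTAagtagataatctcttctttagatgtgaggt
Wnt3a: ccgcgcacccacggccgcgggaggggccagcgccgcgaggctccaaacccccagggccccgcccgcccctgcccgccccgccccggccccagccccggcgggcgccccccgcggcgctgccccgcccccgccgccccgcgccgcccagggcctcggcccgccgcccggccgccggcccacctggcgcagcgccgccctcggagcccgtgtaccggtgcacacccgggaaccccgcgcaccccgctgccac
Wnt9a: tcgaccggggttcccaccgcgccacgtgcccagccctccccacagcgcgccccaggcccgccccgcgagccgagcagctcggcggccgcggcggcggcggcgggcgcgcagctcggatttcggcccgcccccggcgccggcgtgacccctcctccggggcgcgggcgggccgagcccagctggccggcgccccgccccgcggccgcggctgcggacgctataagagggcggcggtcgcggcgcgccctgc
Wnt7a: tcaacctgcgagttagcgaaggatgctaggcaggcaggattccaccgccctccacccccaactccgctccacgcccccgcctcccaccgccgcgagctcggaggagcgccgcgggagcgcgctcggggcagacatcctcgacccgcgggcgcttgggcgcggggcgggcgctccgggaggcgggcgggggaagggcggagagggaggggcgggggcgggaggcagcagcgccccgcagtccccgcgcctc

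The Wnt8b window differs in base composition from the others. It holds 48.4% G and C and 5 CpG, against a median of 52.4% and 6 CpG over 32851 promoters in the table. The windows of Wnt2b, Wnt3a, Wnt7a and Wnt9a hold between 77.6% and 87.6% G and C and between 34 and 48 CpG. Both strands were searched for TAATTA, a core bound by LIM-homeobox and other homeodomain factors, and for CCAAT, the box bound by NF-Y. Of the 5 windows only that of Wnt8b holds TAATTA, as do 4.84% of all windows. CCAAT is in the Wnt8b window, as its reverse complement ATTGG, and in that of Wnt2b, and in 33.8% of all windows. The Tcf/Lef core, searched as CTTTGAA and as the 3 other forms in which the last pair of letters is any mix of A and T, is in 14.8% of all windows and in 0 of these 5. TATAAA (12.4% of all windows) and the Gli motif TGGGTGGTC (0.225%) were likewise in 0 of 5. Wnt3a and Wnt9a are next to each other in the genome, point away from each other and are both GC-rich at the start.

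Depth ran from 27406370 to 36460274 gene reads for medial cortex, and lateral cortex had 56147129 and 66981952. Levels are CPM, counts scaled to the same total of gene reads in each library. The limit that 3 reads set lies between 0.0448 and 0.109 CPM. Such limits, like the exact intervals below, hold counting error alone. Emx1, a transcription factor that marks the cortex, was between 65.6 and 114 CPM in all 5 libraries. Medial library 1 stood apart from the other medial libraries. It held 324 CPM summed over 10 markers of the meninges, the membranes around the brain, against 31.5 and 35.9 CPM in medial libraries 2 and 3 and 20.3 and 24.6 CPM in the lateral ones. Results that rest on it are given with and without it.

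Wnt8b had the largest difference between regions of the 8 ligands. It is known as a marker of the hem and the neighbouring hippocampal primordium. Its level was 123, 31.2 and 21.8 CPM in medial libraries 1 to 3 and 0.209 and 0.0356 CPM in lateral libraries 1 and 2. The lateral values rest on 14 and 2 reads, the medial ones on between 795 and 3369. Every medial library was above both lateral libraries. The log2 fold change, medial over lateral, was 8.70 (SE 1.29), and 7.60 without medial library 1. Lateral library 1 held most of the lateral reads, and without it the value was 10.44. The ratio from pooled reads was 422 (95% exact interval 260 to 739).

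Wnt3a and Wnt2b, the other classical hem ligands, had the same order of libraries on the medial side. Wnt3a, which the hippocampus needs to grow, was at 12.6, 3.89 and 2.91 CPM in the medial libraries and at 0.0299 and 0.0712 CPM, 2 and 4 reads, in the lateral ones. Its log2 fold change was 6.86 (SE 1.13) over all libraries and 5.99 without medial library 1. Wnt2b was at 6.39, 2.89 and 2.30 CPM in medial and at 0.0149 and 0.125 CPM, 1 and 7 reads, in lateral libraries. Its log2 fold change was 5.73 (SE 0.82) and 5.20 without medial library 1. The lateral libraries moved it more, to 4.79 without lateral library 1 and 7.66 without lateral library 2. For both genes the medial and lateral libraries did not overlap.

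Wnt9a and Wnt10a, better known from joints and from teeth and hair, were present at low levels on the medial side. Wnt9a was at 4.93, 2.71 and 2.55 CPM in medial and at 0.164 and 0.232 CPM in lateral libraries. Its log2 fold change was 4.01 (SE 0.46), or 3.69 without medial library 1. Wnt10a had 26, 29 and 16 reads in the medial libraries, or 0.949, 1.04 and 0.439 CPM, and 2 and 0 reads in the lateral ones. The count of 0 in lateral library 2 allows up to 0.0534 CPM. The pooled ratio for Wnt10a was 47.6 (95% exact interval 12.7 to 401). Medial library 1 was highest for Wnt9a but not for Wnt10a, and the groups overlapped for neither.

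Wnt5a, the ligand of this set best known for signalling without beta-catenin, was the one of the 6 medially higher ligands with a sizeable lateral level. It was at 92.2, 47.9 and 45.4 CPM in medial and at 3.58 and 3.33 CPM, 240 and 187 reads, in lateral libraries. The log2 fold change was 4.08 (SE 0.37), and 3.70 without medial library 1. Its lateral libraries differed by only 1.08-fold, against a median of 1.12-fold over all genes tested. GENCODE lists an antisense gene, Gm2670, over exons of Wnt5a. Gm2670 had between 1.10 and 1.79 CPM in medial and 0.134 and 0.0891 CPM in lateral libraries, and without strand a read over shared exons may belong to either gene.

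Wnt7a and Wnt7b form the closely related pair that is expressed widely in the cortical wall and signals to brain vessels through Reck and Gpr124. Wnt7b was at 73.5, 88.0 and 113 CPM in medial and at 213 and 285 CPM in lateral libraries, without overlap. Its log2 fold change was −1.51 (SE 0.23), and −1.35 without medial library 1. Wnt7a was at 21.5, 33.6 and 33.1 CPM in medial and at 35.7 and 29.0 CPM in lateral libraries. The groups overlapped for Wnt7a, whose log2 fold change was −0.20 (SE 0.23), or −0.00 without medial library 1. Lateral library 1 lay above, and lateral library 2 below, medial libraries 2 and 3. Per kilobase of transcript, Wnt7b exceeded Wnt7a in each library, by 3.18-, 2.44- and 3.19-fold in medial libraries 1 to 3 and by 5.57- and 9.19-fold in the lateral ones. Both lateral ratios were above the 3 medial ones and differed from each other as well. The antisense gene AU022754 overlaps exons of Wnt7b and stayed between 2.33 and 3.00 CPM in all libraries.

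**Figure D1:**
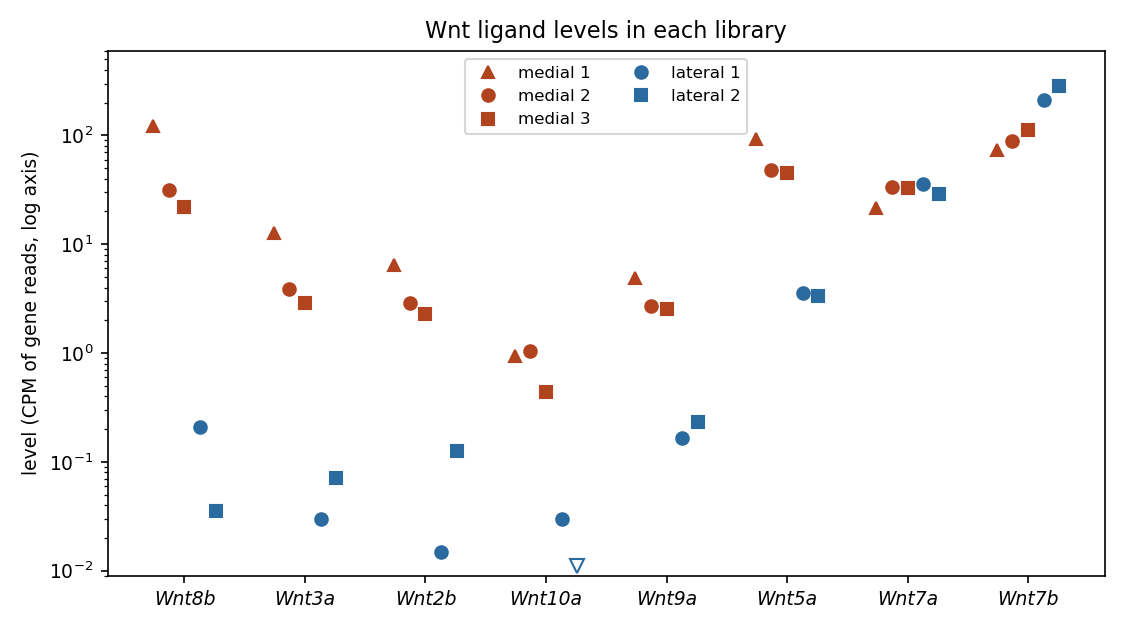
Level of each of the 8 Wnt ligands (CPM of gene reads, log axis) in 3 medial libraries (red) and 2 lateral libraries (blue), 1 point a library; the open triangle stands for 0 reads of Wnt10a in lateral library 2. Wnt8b, Wnt3a, Wnt2b, Wnt10a, Wnt9a and Wnt5a lie higher in all medial libraries and Wnt7b lies lower. For Wnt7a the ranges of the groups overlap between 29.0 and 33.6 CPM.

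In all, 6 of the 8 ligands were higher in every medial library than in both lateral ones and 1 was lower. Of the 16229 genes tested, 53.1% had groups that were separate in this way. They were separated in the medial direction in 31.5% and in the lateral direction in 21.6%. Nothing is read from this contrast, since the list was chosen on it. All 8 passed the filter on low counts, but 5 of them (Wnt2b, Wnt3a, Wnt8b, Wnt9a and Wnt10a) were under it in both lateral libraries and so passed through the medial libraries alone. A count of 10 reads, the filter's minimum, amounts to 0.274 CPM at the median library.

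The make-up of the Wnt ligand RNA differed between regions in each library. Summed over all 19 ligand genes, the level was 347, 220 and 231 CPM in medial and 259 and 324 CPM in lateral libraries, so the groups overlapped through medial library 1 alone. Without it both medial sums lay below both lateral sums. The 8 ligands held between 95.8% and 98.3% of these reads. To compare ligands with each other, levels were divided by the length of the longest protein-coding transcript in GENCODE M21. On that scale Wnt7b made up 81.3% and 87.5% of the ligand level in lateral libraries 1 and 2 and 23.7%, 43.2% and 52.8% in medial libraries 1 to 3. Wnt7a added 14.6% and 9.52% in the lateral libraries and between 7.46% and 17.7% in the medial ones. Wnt8b took 40.0%, 15.4% and 10.2% in the medial libraries and at most 0.0803% in a lateral one. Wnt5a took at least 10.3% of each medial library and at most 0.663% of a lateral one. This share depends on its transcript length of 7010 nucleotides, since of the ligand reads themselves Wnt5a held 26.6%, 21.7% and 19.7% in the medial libraries and 1.38% and 1.03% in the lateral ones.

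**Figure D2:**
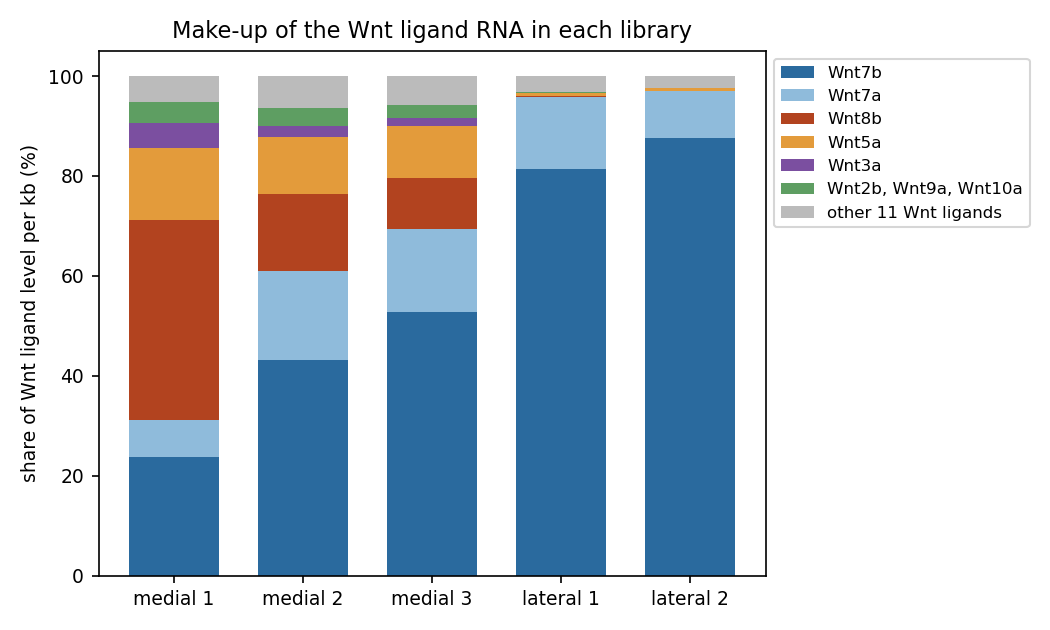
Share of each ligand in the summed Wnt ligand level of a library (percent, CPM per kilobase of transcript), 1 bar a library, for 3 medial and 2 lateral libraries. Wnt7b fills 81.3% and 87.5% of the lateral bars and at most 52.8% of a medial bar, where Wnt8b and Wnt5a take up much of the rest.

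The order of the ligands therefore differed between regions. In medial cortex the mean level per kilobase was 26.9 CPM for Wnt7b (SD 5.91, n = 3), 17.4 for Wnt8b (SD 16.5), 9.27 for Wnt7a (SD 2.16) and 8.82 for Wnt5a (SD 3.76). Neighbours among these 4 overlapped in range, and Wnt8b was above Wnt7b in medial library 1 only. Below them came Wnt3a at 2.34 (SD 1.92), Wnt2b at 1.16 (SD 0.665), Wnt9a at 1.02 (SD 0.400) and Wnt10a at 0.327 (SD 0.131). The steps from Wnt5a to Wnt3a and from Wnt9a to Wnt10a were the 2 in this order without overlap. In lateral cortex Wnt7b at 73.3 CPM per kilobase, Wnt7a at 10.2, Wnt5a at 0.493 and Wnt9a at 0.0596 followed each other without overlap, and from Wnt9a downward neighbours in the order overlapped near the floor.

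The ligands also differed in how they varied among the medial libraries. Medial library 1 held 4.64 times the mean of medial libraries 2 and 3 for Wnt8b, 3.69 times for Wnt3a, 2.46 times for Wnt2b, 1.98 times for Wnt5a and 1.87 times for Wnt9a. It held 1.29 times for Wnt10a, 0.730 times for Wnt7b and 0.645 times for Wnt7a. Over all genes tested the median of this ratio was 1.04 and its 95th percentile 1.97. Wnt8b, Wnt3a and Wnt2b were at least 2-fold above every other library there, as were 2.59% of all genes tested. No test was made, since 1 library stands on one side.

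Markers of the hem moved with these 3 ligands, and so did those of the meninges. Of 10 hem markers without Wnt genes, 7 had a level in medial library 1 that exceeded each other library by 2-fold or more. The summed level of the 10 ranged from 75.7 to 218 CPM in medial and from 33.1 to 36.7 CPM in lateral libraries. Most of the lateral sum was Rspo3, at 30.5 and 34.7 CPM there and at 88.9, 36.4 and 32.1 CPM in medial libraries. Of 9 tested hem markers, 6 were higher in medial cortex in edgeR and 0 lower, against 4.62% and 5.10% of all genes tested. Gdf7 alone of the 10 had 0 reads in each medial library. Lmx1a, the transcription factor that defines the hem, was at 23.0, 6.82 and 4.58 CPM in medial and at 0.373 and 0.142 CPM in lateral libraries. For the meninges 8 of 10 markers stood out in medial library 1 in the same way, and the median ratio to the other medial libraries was 17.0 against 3.64 for the hem. Without medial library 1, 2 of 7 tested meningeal markers were higher in medial cortex, which are named after their values were seen. Dcn was at 3.79 and 4.14 CPM in medial libraries 2 and 3 against 0.806 and 0.517 CPM (edgeR adjusted p = 0.0139), and Crabp2 at 16.6 and 16.9 CPM against 6.49 and 3.78 CPM (edgeR adjusted p = 0.023). In medial library 1 Crabp2 was lower, at 7.01 CPM. The other tested markers did not pass without that library. Their log2 fold changes were −0.32 for Col1a1, −0.29 for Col1a2, −0.47 for Col3a1, −0.36 for Foxc1 and 0.26 for Ogn. Neuronal markers were lower in medial library 1 than in the other medial libraries, with a median ratio of 0.734. Choroid plexus markers summed to between 9.75 and 19.7 CPM in medial and to 2.63 and 13.1 CPM in lateral libraries, with none at 0 throughout, and diencephalic markers to at most 3.06 CPM in any library. Of 7 tested choroid plexus markers 1, Otx2, was higher in medial cortex in edgeR and 0 were lower. Otx2 was at 13.5 CPM in medial library 1. Ttr was at 0.693, 2.32 and 8.75 CPM in medial and at 0.926 and 10 CPM in lateral libraries. Both were named after their values were seen. The part of these cell types in the Wnt levels was not tested.

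**Figure D3:**
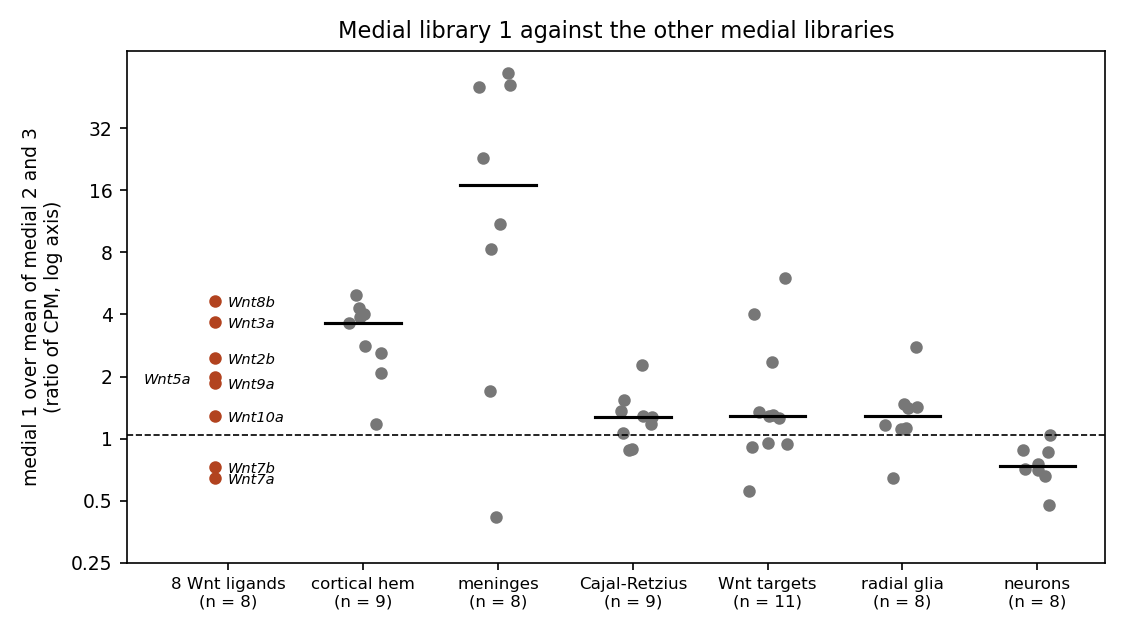
Ratio of the CPM in medial library 1 to the mean of medial libraries 2 and 3 (log axis), 1 point a gene, for the 8 Wnt ligands (red) and 6 gene lists (grey, bar at the median); n counts the genes with more than 3 reads in each medial library and the dashed line is the median of all genes tested, 1.04. Wnt8b (4.64) and Wnt3a (3.69) lie beside the hem genes, Wnt7a (0.645) and Wnt7b (0.730) beside the neuronal genes, and meningeal genes reach farthest.

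The ratio of Wnt8b to Wnt3a varied less over the medial libraries than that of Wnt8b to Wnt5a. Per kilobase, Wnt8b exceeded Wnt3a by 8.01-fold (95% exact interval 7.17 to 8.98), 6.55-fold (5.36 to 8.07) and 6.13-fold (5 to 7.58) in medial libraries 1 to 3. Neighbouring intervals overlap, although Wnt8b itself varied 5.64-fold over these libraries and Wnt3a 4.32-fold. The ratio of Wnt8b to Wnt5a went from 2.77 (2.63 to 2.91) in medial library 1 to 1.35 (1.24 to 1.47) and 0.997 (0.915 to 1.09) in medial libraries 2 and 3, with no overlap. These intervals compare reads within a library and hold no spread between embryos.

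The genes most alike to each ligand were sought over the 5 libraries among 11639 named genes with a mean of at least 1 CPM, by the root mean square difference of log2 CPM after centring each gene. Wnt10a was under that mean and was left out. For Wnt3a the closest was Rspo2 (difference 0.28), an R-spondin made in the hem, then Lect1 (0.34) and the retinol carrier Rbp4 (0.35). For Wnt2b it was Otx2 (0.37), a homeobox factor of the dorsal midline that is also in the choroid plexus list. For Wnt8b it was Rspo1 (1.11) and Rspo2 (1.13). The lateral libraries of Wnt8b differed 5.87-fold from each other. Wnt5a lay closest to Wif1 (0.21), a secreted Wnt inhibitor, and to Zic1 (0.23), and Wnt9a to Tesc (0.26) and Prtg (0.28). Wnt7b was matched within 0.03 by Hs6st2, a heparan sulfate 6-O-sulfotransferase at 27.5, 34.4 and 44.6 CPM in medial and 82.8 and 108 CPM in lateral libraries, and within 0.08 by Abr and Zbtb38. Wnt7a was matched within 0.03 by Fam59b and within 0.05 by Crim1. Small distances are easier to reach for genes that vary little, so these values are not comparable between ligands.

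Genes next to the ligands on the chromosome were taken by order of protein-coding genes in RefSeq. Of 13 neighbouring places taken by genes other than Wnt ligands, 10 held a tested gene, of which 1 was higher and 1 lower in medial cortex. Over all genes tested, 4.62% were higher and 5.10% lower, and nothing is read from so few neighbours. Both flank Wnt5a and were named after their values were seen: Cacna2d3 had a log2 fold change of 1.45 (SE 0.18) and Erc2, on the other side, one of −0.79 (SE 0.15), with edgeR adjusted p-values of 0.0296 and 0.0371. Arf1, beside Wnt3a, was at a mean of 230 and 235 CPM in medial and lateral libraries, and Scd1, beside Wnt8b, at 15.6 and 11.9 CPM. Wnt6, beside Wnt10a, had at most 4 reads in any library.

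Outside the 8, 11 further Wnt ligand genes were counted, of which 2 passed the filter. Wnt5b, the close relative of Wnt5a, was at 9.41, 8.39 and 7.90 CPM in medial and at 5.60 and 4.76 CPM in lateral libraries. Its log2 fold change of 0.65 (SE 0.15) just missed the threshold of 0.05 in edgeR (adjusted p = 0.0516), and it passed under 4 of 14 alternatives (adjusted p from 0.00291 with DESeq2 to 0.319 in edgeR without lateral library 2). Wnt3 was at 0.912, 0.464 and 0.302 CPM against 0.269 and 0.338 CPM and did not pass (log2 fold change 0.76, SE 0.49, edgeR adjusted p = 0.335). The other 9, Wnt1 and Wnt4 among them, had at most 14 reads in any library.

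Other genes of the Wnt pathway were then read from the edgeR fit on all genes, where each adjusted p is taken over all genes tested. The pathway and marker lists were drawn up with earlier results of these data known, so counts of calls in a list are a description. Of the called genes named below, Rspo1, Rspo2, Wif1 and Sp5 were under 0.274 CPM in both lateral libraries. They passed the filter through the medial libraries alone. Of 105 listed genes 88 were tested, 15 were higher and 4 lower in medial cortex. Over all 16229 genes, 9.72% were called, 4.62% higher and 5.10% lower. The median log2 fold change of the 88 was 0.06 and that of all genes 0.01. Without medial library 2 or lateral library 2 the count fell to 0 in both directions, as it did for all genes (4035 genes without medial library 2 and 2456 without lateral library 2 had an unadjusted edgeR p under 0.05), and without lateral library 1 to 1 higher and 0 lower. Without medial library 3, 11 were higher and 3 lower. Of the genes named below Frzb, Fzd9, Gpc6, Porcn, Prickle1, Ror2 and Tcf7 then missed the threshold, with edgeR adjusted p-values between 0.0517 and 0.0891. Without medial library 1, 9 genes were lower.

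Machinery for making the ligands gave a mixed picture. Porcn was at 13, 18 and 15.8 CPM in medial and at 27.4 and 25 CPM in lateral libraries and was the 1 of 9 secretion genes that was lower (log2 fold change −0.82, SE 0.16, edgeR adjusted p = 0.0402). Each medial library was below both lateral ones. Wls was at 65.8, 33.9 and 28.4 CPM against 16.2 and 14.0 CPM, with no overlap. Its log2 fold change of 1.42 (SE 0.35) missed the threshold in edgeR (adjusted p = 0.0562). It passed under 4 of 14 alternatives, among them DESeq2 (adjusted p = 0.00049) and edgeR without medial library 1 (adjusted p = 0.0177). The retromer and Tmed trafficking genes of the list did not pass, with log2 fold changes between −0.12 and 0.22.

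Of 10 Frizzled receptors 1 was higher in medial cortex and 0 were lower. Fzd9 was at 58.8, 61.4 and 50.8 CPM against 17.6 and 8.17 CPM (log2 fold change 2.07, SE 0.31, edgeR adjusted p = 0.0305). Fzd8 was at 24.3, 39.4 and 60.9 CPM against 131 and 106 CPM. It just missed the threshold (−1.57, SE 0.37, edgeR adjusted p = 0.0521) and passed under 6 of 14 alternatives. Among these were DESeq2 (adjusted p = 0.000322), edgeR on library size alone (adjusted p = 0.0474) and edgeR without medial library 1 (adjusted p = 0.0285). Fzd5 (−0.70, edgeR adjusted p = 0.421) and Fzd10 (1.01, edgeR adjusted p = 0.166) did not pass. Frizzled RNA as a whole was between 576 and 646 CPM in medial and at 610 and 520 CPM in lateral libraries, so the groups overlapped.

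Among 12 co-receptors 2 were higher. Ror2, the receptor that takes Wnt5a signals, was at 21.0, 32.7 and 28.4 CPM against 11.7 and 9.42 CPM (log2 fold change 1.31, SE 0.23, edgeR adjusted p = 0.0339). In medial library 1, where Wnt5a was highest, Ror2 was lowest of the medial libraries. Gpc6, a cell-surface heparan sulfate proteoglycan, had a log2 fold change of 0.48 (SE 0.11, edgeR adjusted p = 0.0484). That call was lost in 7 of 14 alternatives, among them no filter on low counts (0.089) and thinning to the smallest library (0.0677). Lrp6 was between 137 and 152 CPM in all 5 libraries. Reck and Gpr124, the co-receptors for Wnt7a and Wnt7b on vessels, had log2 fold changes of −0.23 and −0.43 and did not pass (edgeR adjusted p = 0.332 and 0.394). Markers of endothelium summed to between 84.9 and 104 CPM in medial and to 110 and 121 CPM in lateral libraries, and 1 of 7 was lower in medial cortex (Cdh5, named after its value was seen). Over all genes tested 5.10% were lower. The median log2 fold change of the 7 was −0.50. At an unadjusted edgeR p under 0.05 were 5 of the 7, and 5231 of all 16229 genes. In DESeq2 5 of the 7 passed, and in edgeR without medial library 1, 3 were lower.

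R-spondins, which act with Lgr receptors to raise Wnt reception, and the ligases they inhibit gave 4 higher and 0 lower of 6 tested. Rspo1 was at 21.6, 12.1 and 8.75 CPM against 0.0896 and 0.107 CPM (log2 fold change 7.05, SE 0.63, edgeR adjusted p = 0.0234). Rspo2 was at 51.2, 15.5 and 12.6 CPM against 0.194 and 0.249 CPM (6.80, SE 0.95, edgeR adjusted p = 0.0296). The ligases Rnf43 (3.50, SE 0.29) and Znrf3 (1.34, SE 0.17) were higher as well, with edgeR adjusted p-values of 0.0231 and 0.0296. Rspo1 and Rspo2 are also in the hem list, and without medial library 1 their log2 fold changes were 6.65 and 5.93. Of the secreted antagonists 3 of 9 tested were higher and 0 lower. Dkk3 was at 50.3, 28.4 and 20.4 CPM against 2.70 and 4.29 CPM, Wif1 at 5.14, 2.75 and 1.78 CPM against 0.149 and 0.107 CPM, and Frzb at 5.36, 9.50 and 7.76 CPM against 2.27 and 1.10 CPM. The log2 fold changes of these 3 were 3.16 (SE 0.44), 4.50 (SE 0.65) and 2.08 (SE 0.39), with edgeR adjusted p-values of 0.0296, 0.0296 and 0.0369. Without medial library 1 the log2 fold changes were 2.75, 4.03 and 2.28.

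Inside the cell, of 13 cytoplasmic transducers, which include beta-catenin (Ctnnb1, log2 fold change −0.13, edgeR adjusted p = 0.540) and the kinase Csnk1a1 (−0.05, edgeR adjusted p = 0.749), 0 passed in edgeR over all libraries. Of the 13, 3 (Apc, Apc2 and Csnk1e, named after their values were seen) were at an unadjusted edgeR p under 0.05, and 3 passed in DESeq2. Without medial library 1, 2 were lower, Apc2 (−0.76, edgeR adjusted p = 0.0245) and Csnk1e (−0.37, edgeR adjusted p = 0.0471). Of 12 nuclear effectors Lef1 (2.04, SE 0.19) and Tcf7 (1.17, SE 0.22) were higher and the co-repressor Tle2 (−1.64, SE 0.19) was lower, with edgeR adjusted p-values of 0.0238, 0.0374 and 0.0255. Thinning to the smallest library took the call from Tcf7 (0.0522). In the planar polarity list, a route that Wnt5a can use, Celsr3 (−0.79, SE 0.10) and Prickle1 (−1.49, SE 0.29) were lower of 9 and 0 were higher, with edgeR adjusted p-values of 0.0296 and 0.0384.

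Transcriptional targets of the pathway were higher in medial cortex in 7 of 11 tested genes and lower in 0. Rnf43, Znrf3, Lef1 and Tcf7 are also in the lists above. Axin2, the feedback inhibitor used as a general readout, was at 109, 95 and 75.1 CPM against 27.8 and 24.5 CPM (log2 fold change 1.75, SE 0.15, edgeR adjusted p = 0.0231). Tnfrsf19 was at 309, 375 and 281 CPM against 67.7 and 46.3 CPM (2.43, SE 0.20, edgeR adjusted p = 0.0231). The targets were not alike in medial library 1. Against the mean of medial libraries 2 and 3 that library held 1.28 times as much Axin2, 0.947 times as much Lef1 and 0.941 times as much Tnfrsf19, beside 4.64 times as much Wnt8b. Sp5, a direct target, was 4.02 times as high there, at 7.95, 2.75 and 1.21 CPM in medial and 0.0597 and 0.0356 CPM in lateral libraries. Its log2 fold change was 6.15 (SE 1.25, edgeR adjusted p = 0.0403), and 5.18 without medial library 1. The median over 11 targets of the ratio to medial libraries 2 and 3 was 1.28. In medial library 1, 2 of them, Sp5 and Apcdd1, were at least 2-fold above every other library. Sp5, Apcdd1 and Ccnd1 were named after their values were seen. Ccnd1, a cyclin, was at 204, 25.6 and 42.3 CPM in medial and at 93.1 and 105 CPM in lateral libraries. It did not pass over all libraries (log2 fold change −0.23, edgeR adjusted p = 0.875) and was lower without medial library 1 (−1.58, edgeR adjusted p = 0.0235), so the count of 0 lower targets became 1. The ratios of ligands and targets were not tested against each other. Cell type markers differed between regions along with the targets. Neuronal markers summed to between 2086 and 3063 CPM in medial and to 3997 and 5114 CPM in lateral libraries, with 3 of 8 lower. Radial glial markers summed to between 2892 and 3810 CPM against 2261 and 1888 CPM, with 2 of 8 higher. Of the Cajal-Retzius markers 8 of 9 were higher, and of those of the hippocampal primordium, which include Lef1, 9 of 9. GABAergic and subpallial markers were lower in 6 of 8. Over all genes tested, 4.62% were higher and 5.10% lower in edgeR. In DESeq2, 8 of 8 neuronal and 5 of 8 radial glial markers passed, where over all genes 1702 were higher and 1858 lower. The part of these cell types in the levels of the targets was not tested.

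**Figure D4:**
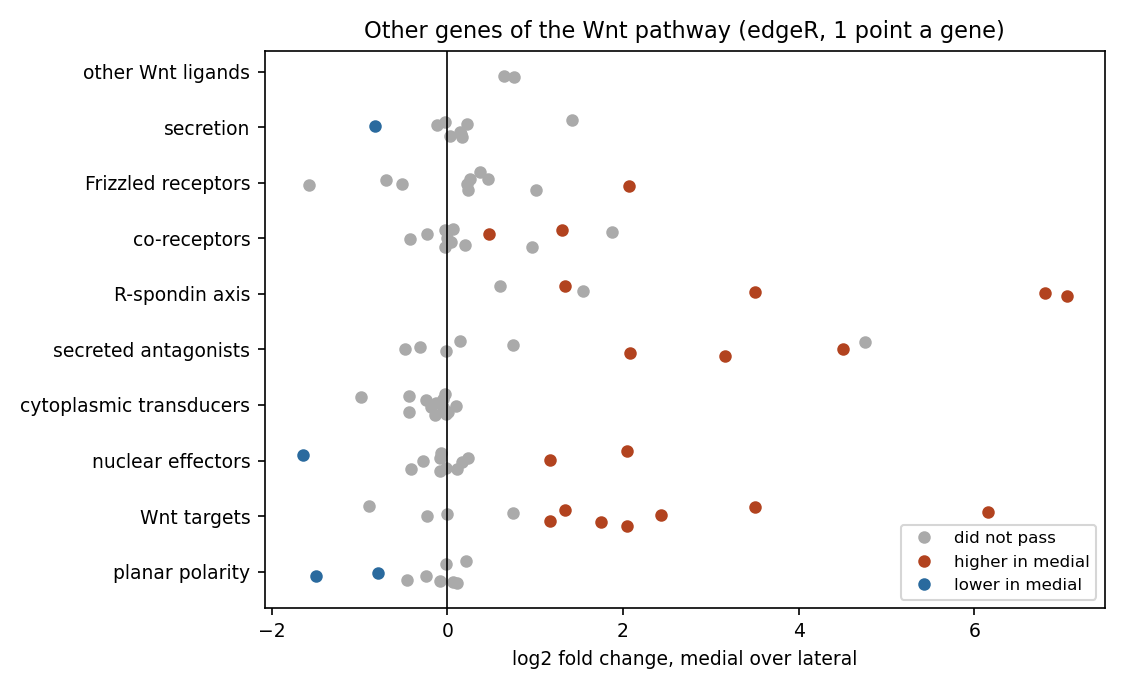
Log2 fold change, medial over lateral, of the other genes of the Wnt pathway in 10 lists, 1 point a tested gene, coloured by the edgeR call at an adjusted p of 0.05; a gene in 2 lists appears in both. Calls toward medial cortex are most frequent among the R-spondin axis (4 of 6) and the targets (7 of 11). Over all libraries 0 of 13 cytoplasmic transducers passed, and 2 were lower without medial library 1.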

How the data were processed

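RNA was sequenced from polyadenylated, unstranded libraries, per the labels' protocols. The authors deposited raw read counts per gene symbol, as whole numbers with a different total in each library, without normalisation. The submitters' processing notes name mm9, BWA, STAR and HTSeq, without versions or roles. HTSeq classes of unassigned reads (23.1% to 28.7% of a file) were left out of library sizes and tests. Levels are CPM of gene reads, and CPM per kilobase uses GENCODE M21 transcript lengths.

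Counts were fitted with edgeR 4.0.16 in R 4.3.3 (TMM, glmQLFit in the newer form, glmQLFTest, group as the only term, 3 residual degrees of freedom). The filter was filterByExpr (count 10, total 15), which kept 16229 genes, and p-values were adjusted by Benjamini-Hochberg over all of them at a threshold of 0.05. The SE is the log2 fold change over the root of F. The test was checked on simulated counts. Exact intervals are Clopper-Pearson at 95%, computed with SciPy 1.17.1.

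The 8 ligands, the gene lists and the tests were chosen with earlier results of these data known. Named pathway genes are up to 4 called genes a list with the lowest adjusted p, or the 2 with the highest mean, and 11 genes known to handle these ligands. Alternatives were other scalings, filters, DESeq2 1.42.0, thinning to the smallest library, blocks and leaving out each library. The blocks used the older edgeR test, because the newer form gave no result with 1 residual degree of freedom; this was chosen after seeing the data.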

Additional observations from a re-analysis of the deposited data

How the results depend on the processing

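Over 14 alternatives the log2 fold changes of Wnt2b, Wnt3a, Wnt5a, Wnt7b, Wnt8b, Wnt9a and Wnt10a kept their sign, and that of Wnt7a ranged from −0.35 to 0.01. Leaving out 1 library gave 4.79 to 7.66 for Wnt2b, 7.60 to 10.44 for Wnt8b and 4.52 to 7.83 for Wnt10a, which have at most 14 reads in either lateral library. For Wnt10a the filter at 1 CPM gave no value. Counts over all genes were less stable: 750 genes were higher as reported, 1702 with DESeq2, 496 without a filter on low counts, and 0 to 1027 on leaving out 1 library. The 827 lower genes became 1858 with DESeq2 and 0 to 1137 on leaving out 1 library. For the pathway, leaving out 1 library gave 0 to 17 higher and 0 to 9 lower genes, and DESeq2 gave 9 lower. The cause was not tested. Replicates 1 and 2 share only a number across regions (correlation of deviations 0.03 and −0.38). With the replicate number as a block, 396 genes were higher and 588 lower, and of pathway genes 11 were higher and 5 lower. A tag shared by deposited names (correlation 0.38 for both pairs) as a block gave 2609 higher and 2727 lower genes, and 23 and 17 in the pathway. No lateral library shared a tag with medial library 1 or a number with medial library 3. Each was alone in that block and added nothing to the difference between regions. For Wnt8b the tag block gave 7.63 (7.60 without medial library 1) and the number block 9.18 (9.09 without medial library 3). Each block thus nearly repeats a left-out library, so counts out of 14 alternatives hold these exclusions more than once. With 2 lateral libraries, the deviations of one are the mirror image of the other. The correlations given for number and tag are therefore not independent and do not decide between them. Both blocks were added after seeing the data in the older form of the test. For the 29 named pathway genes, 319 values kept their side of the threshold, 69 lost it, 16 gained it and 0 reversed. The 319 include values of genes that were not called as reported. Every loss fell on a called gene, and each called gene of the 29 had losses. Depth limits the lateral values of Wnt2b, Wnt3a, Wnt8b, Wnt9a and Wnt10a most.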
